A study of Mus musculus with 70 samples.

Results

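The 10 genes described here encode transcription factors that are known to shape monocyte fate: Nr4a1, Nr4a2, Nr4a3, Klf2, Klf4, Cebpa, Cebpb, Irf8, Spi1 and Pou2f2. They were chosen by name, with earlier results of these data known. Their counts were read from a table of 52636 genes in 70 libraries of sorted mouse blood cells, of which 68 were used. Male C57BL/6J mice, 7 to 8 weeks old, were exposed to an aggressive CD-1 mouse for 10 min on each of 10 days, a model called chronic social defeat stress (CSDS). Susceptible (SUS) mice avoided a social target afterwards, resilient (RES) mice did not, and control (CON) mice were housed in pairs across a partition without stress. The labels name no altered gene in any group, and both defeated and CON mice were housed singly after the last bout. Trunk blood was sorted into T cells, B cells and the Ly6Chigh and Ly6Clow types of monocyte, with 6 libraries per group except Ly6Clow CON with 4, RES B cells with 5 and RES T cells with 5. The labels name the source as brain, whereas the methods describe blood, and no label ties a library to a mouse. Cell types could therefore not be matched within a mouse, and p-values measure the spread between libraries, which may be technical.

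Blood monocytes leave the bone marrow as Ly6Chigh cells, which are recruited into inflamed tissue, and a part of them converts into Ly6Clow cells, which patrol the vessel wall. PU.1 (encoded by Spi1) and the C/EBP factors set up the myeloid programme in progenitors, and IRF8 directs progenitors towards monocytes and dendritic cells. NR4A1, a nuclear receptor that acts without a known hormone ligand, is required for Ly6Clow monocytes to survive, and KLF4, KLF2, C/EBPβ and OCT2 (encoded by Pou2f2) have been linked to monocyte differentiation or to quiescence of blood cells. The NR4A genes are also immediate early genes, switched on within minutes of a signal through factors such as CREB.

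The promoter windows of the NR4A genes are shown because each held 4 matches to TGACG, and that of Klf4 is set beside them as one with a single match. This choice was made after the matches were counted and does not follow the monocyte comparison, in which Nr4a2 was not called and Pou2f2, not shown, was. The sequences are from RefSeq on GRCm38.p6 and run 5′ to 3′ from 250 bases before to 50 bases after the annotated start, with TGACG, the core of the cyclic AMP response element, in capitals on either strand. They lie at chr15:101266596-101266895 (plus strand, Nr4a1), chr2:57123954-57124253 (minus strand, Nr4a2), chr4:48045055-48045354 (plus strand, Nr4a3) and chr4:55532426-55532725 (minus strand, Klf4). The Nr4a1 window lies within the gene as GENCODE M21 draws it, from 101254269 to 101274795.
Nr4a1: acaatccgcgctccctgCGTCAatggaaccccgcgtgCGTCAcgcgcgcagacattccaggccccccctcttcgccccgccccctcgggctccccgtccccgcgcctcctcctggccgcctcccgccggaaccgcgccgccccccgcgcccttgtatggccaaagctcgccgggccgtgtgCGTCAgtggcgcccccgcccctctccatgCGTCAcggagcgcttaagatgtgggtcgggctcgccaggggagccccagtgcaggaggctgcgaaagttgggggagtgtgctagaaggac
Nr4a2: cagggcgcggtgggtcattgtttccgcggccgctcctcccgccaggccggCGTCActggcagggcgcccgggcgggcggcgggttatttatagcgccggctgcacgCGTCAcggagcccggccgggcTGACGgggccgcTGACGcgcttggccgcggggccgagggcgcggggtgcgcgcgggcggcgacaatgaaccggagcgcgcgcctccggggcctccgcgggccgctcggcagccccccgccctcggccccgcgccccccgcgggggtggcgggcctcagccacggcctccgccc
Nr4a3: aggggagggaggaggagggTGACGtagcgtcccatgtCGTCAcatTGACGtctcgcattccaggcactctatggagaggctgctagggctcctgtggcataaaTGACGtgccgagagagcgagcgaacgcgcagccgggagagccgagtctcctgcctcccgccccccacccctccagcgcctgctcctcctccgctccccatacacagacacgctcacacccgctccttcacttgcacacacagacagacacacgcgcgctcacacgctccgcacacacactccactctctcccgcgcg
Klf4: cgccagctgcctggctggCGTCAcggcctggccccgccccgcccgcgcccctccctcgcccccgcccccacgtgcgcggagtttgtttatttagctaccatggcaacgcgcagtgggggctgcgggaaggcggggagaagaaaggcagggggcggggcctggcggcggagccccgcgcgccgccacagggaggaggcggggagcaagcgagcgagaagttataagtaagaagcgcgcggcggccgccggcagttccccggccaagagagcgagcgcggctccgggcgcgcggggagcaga
Each NR4A window held 4 matches to TGACG, Cebpb held 3, Klf2 and Klf4 held 1 each, and Cebpa, Irf8 and Pou2f2 held 0. At least 1 match was present in 20.8% of all 32851 windows, and 4 or more were present in 0.231%. Windows were found for 9 of the 10 genes, and 6 of these genes held TGACG, while 8 held the GC box GGGCGG, present in 35.7% of all windows. No window of the 9 genes held the NR4A site AAAGGTCA (1.51% of all windows), the octamer ATGCAAAT (1.74%), the full element TGACGTCA (1.79%), the PU.1 site GAGGAAGT (3.2%) or the C/EBP site TTGCNNAA (10.8%), each searched on both strands. TGACG lies within TGACGTCA, and a match to letters is a description, not a bound site.

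Total counts ranged from 19769835 to 67038231 per library, and Gm23935 with Gm26917, abundant non-coding RNAs, took 0.395% to 41% of them. Both libraries that were left out went against their labels: library 52, labelled RES B cells, held 5.76 CPM (counts scaled to a common library total) of the B cell gene Cd79a and 412 CPM of the T cell gene Cd3e, while library 70, labelled RES T cells, held 1420 and 0.143 CPM. The sorted monocytes carried their defining markers. All 5 Ly6Chigh markers were lower, and all 5 Ly6Clow markers higher, in Ly6Clow than in Ly6Chigh CON libraries. Levels below are CPM scaled by the trimmed mean of M-values (TMM) over the 68 libraries, and levels of different genes are compared only per kilobase of exon (RPKM). A gene was called changed at an adjusted p under 0.05 (edgeR's quasi-likelihood test, Benjamini-Hochberg over all genes tested) together with an absolute log2 fold change above 1. In sorted bulk RNA, fewer cells of a type and less RNA per cell cannot be told apart.

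**Figure D1:**
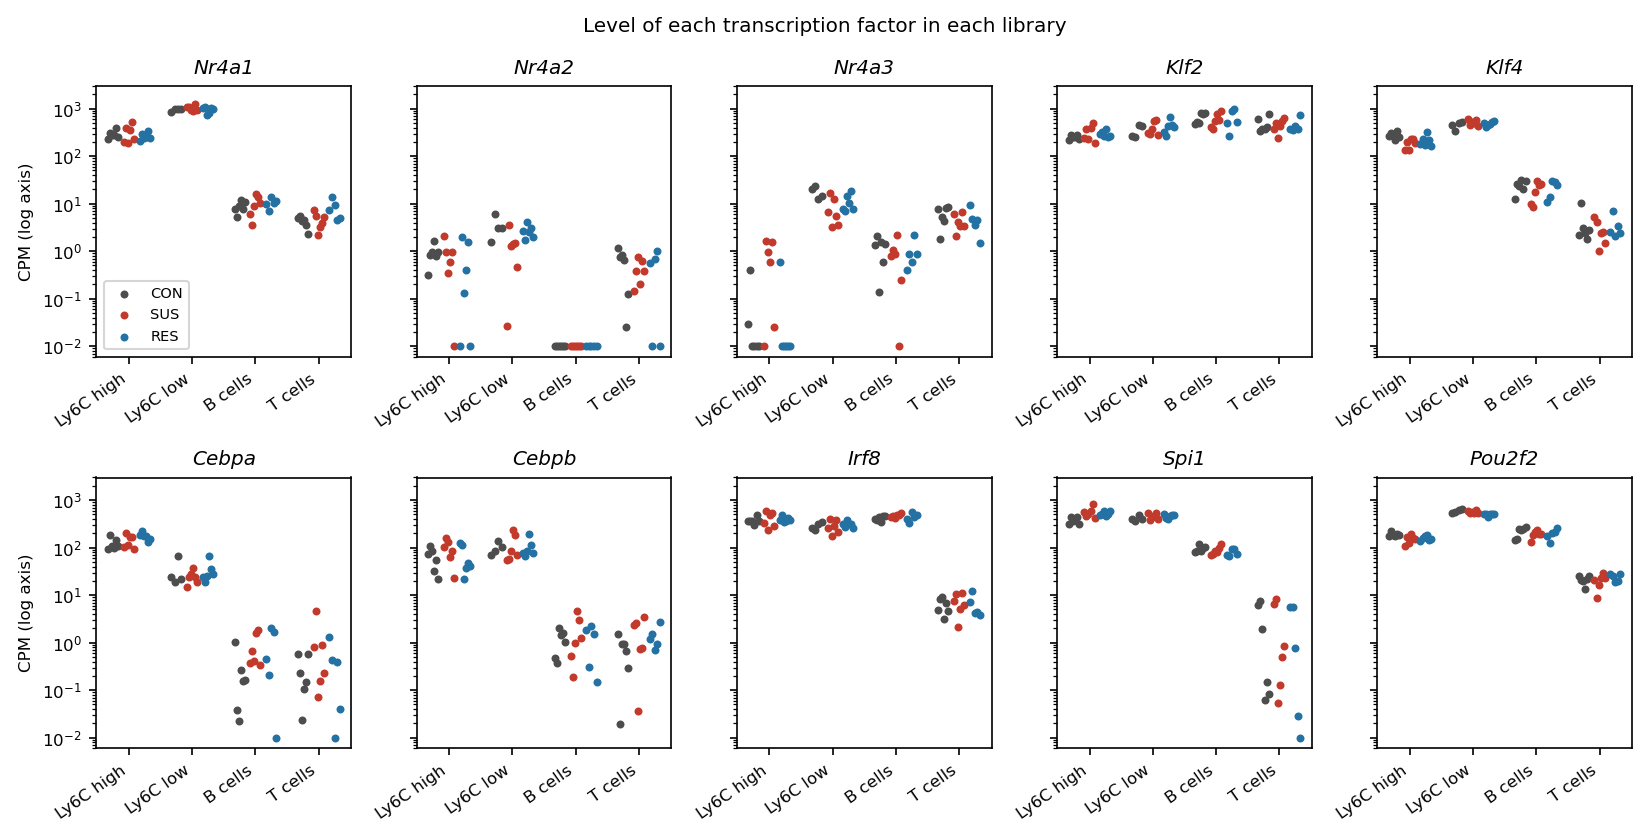
Level of each of the 10 genes in each of the 68 libraries, as CPM on a log axis, with 1 point per library coloured by CON, SUS and RES, and libraries at 0 drawn at 0.01 CPM. Nr4a1 lay between 731 and 1238 CPM in Ly6Clow monocytes and between 2.21 and 15.9 CPM in lymphocytes, whereas Klf2 was above 184 CPM in every library.

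Per length, the order of the genes differed between cell types. In CON Ly6Chigh monocytes Spi1 (142 ± 22.5 RPKM, SD, n = 6) and Klf2 (135 ± 13.4) were highest and did not differ beyond their spread, followed by Klf4 (91.3 ± 13.6) and Nr4a1 (83.8 ± 16.5), which overlapped likewise. In CON Ly6Clow monocytes Nr4a1 (270 ± 16.9 RPKM, n = 4) was highest, and Klf2 (192 ± 57.3), Spi1 (152 ± 17.8) and Klf4 (150 ± 25.9) followed within each other's spread. Klf2 was highest in CON B cells (350 ± 92.3 RPKM, n = 6) and in CON T cells (260 ± 94, n = 6), where every other member was at or below 2.58 RPKM. Nr4a2 and Nr4a3 were below 3 RPKM in every cell type.

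The comparison of the monocyte types asks which of these factors separate Ly6Clow from Ly6Chigh cells, and whether they do so in each mouse group. In CON libraries 4 of the 10 genes were called, 3 higher and 1 lower in Ly6Clow, where 10.6% of the 24248 genes tested were called (6.52% higher and 4.08% lower). In SUS libraries 5 were called, 4 higher and 1 lower, beside 20.7% of all genes (11.6% and 9.08%). In RES libraries 5 were called, again 4 higher and 1 lower, beside 20.8% of all genes (13.7% and 7.14%). Nr4a1, Nr4a3 and Pou2f2 were called higher and Cebpa lower in all 3 groups, and Klf4 was called higher in SUS and RES. The median log2 fold change of the 10 genes was 0.69, 0.52 and 0.93 in CON, SUS and RES, beside 0.01, 0.16 and 0.21 for all genes.

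Nr4a1, the nuclear receptor on which Ly6Clow monocytes depend, measured 858, 972, 986 and 969 CPM in the 4 CON Ly6Clow libraries and 233 to 397 CPM (median 282) in the 6 CON Ly6Chigh libraries. The groups did not overlap, and the log2 fold change was 1.69 (SE 0.28, adjusted p = 4.68e-06, edgeR). The difference was 1.69 (SE 0.26) in SUS and 1.83 (SE 0.26) in RES libraries, and stayed called in each of 28 refits over the 3 groups. Nr4a3, a relative of Nr4a1 induced by the same kind of signals, was 20.8, 23.8, 12.7 and 14.4 CPM in the CON Ly6Clow libraries. In CON Ly6Chigh libraries it was at 0 counts in 4 of 6, with 1 count in another and 16 counts in the sixth. The log2 fold change was 7.85 (SE 1.12, adjusted p = 1.38e-07, edgeR), a size that rests on these few counts, and the mean levels were 17.9 against 0.0731 CPM.

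Nr4a3 in Ly6Clow monocytes varied together with markers of natural killer cells. The summed level of Ncr1, Klrb1c, Gzma and Prf1 ran from 245 to 1340 CPM in Ly6Clow and from 0.181 to 37.9 CPM in Ly6Chigh libraries, and 4 of 4 were called higher in Ly6Clow in each mouse group. Over the 16 Ly6Clow libraries, after the group means were subtracted, Nr4a3 followed this sum with r = 0.77 (permutation p = 0.00078, adjusted over 4 such relations 0.00156) and rho = 0.73 (permutation p = 0.00325, adjusted 0.0065). The r was 0.74 without the 2 libraries farthest from the median of the sum. The relation was chosen after seeing the data, and adjusting over 4 relations does not cover that choice. Of the T cell markers, Lck, which natural killer cells also express, was 17.3 to 95.9 CPM in Ly6Clow and 0.05 to 3.47 CPM in Ly6Chigh libraries. Cd3e, Cd3d and Cd3g were at most 0.877, 1.36 and 0.869 CPM in any Ly6Clow library, and Lck was the 1 of 4 called in CON. T cells themselves held 1.5 to 9.44 CPM of Nr4a3, and no library of natural killer cells was analysed here, so the part of these cells in the Nr4a3 level was not tested. Nr4a1, Klf4 and Pou2f2 were each lower in every T cell library than in any Ly6Clow library. Their levels in natural killer cells were not measured, so the part of those cells in these 3 genes was not tested either.

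Nr4a2, the remaining NR4A gene, was low throughout. It measured 1.59, 5.92, 3.09 and 3.01 CPM in CON Ly6Clow libraries and 0.317 to 1.61 CPM (median 0.892) in CON Ly6Chigh libraries, and the log2 fold change of 1.89 (SE 1.10) did not pass (adjusted p = 0.261, edgeR). With only these 2 groups in the fit the value was 1.92 and passed (adjusted p = 0.0371). All 17 B cell libraries were at 0 counts for Nr4a2. Against a floor of 3 counts per library, its level was at least 29.8-fold higher in CON Ly6Clow monocytes, at least 7.99-fold higher in CON Ly6Chigh monocytes and at least 5.21-fold higher in CON T cells than in CON B cells.

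**Figure D2:**
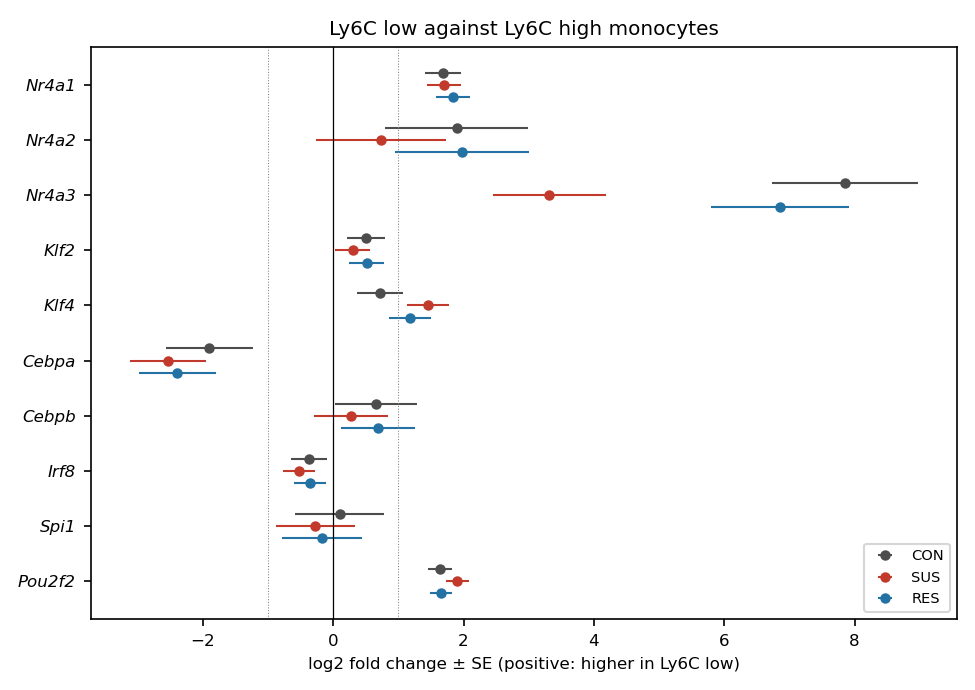
Log2 fold change of each gene between Ly6Clow and Ly6Chigh monocytes with its standard error, in CON, SUS and RES, where positive values are higher in Ly6Clow and dotted lines mark 1 and -1. Nr4a1, Nr4a3 and Pou2f2 lie right of 1 in all 3 groups and Cebpa lies left of -1, while Irf8, Spi1, Klf2 and Cebpb lie between the lines.

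Klf4, a zinc finger factor that promotes monocyte differentiation, measured 462, 344, 503 and 520 CPM in CON Ly6Clow libraries and 224 to 343 CPM (median 274) in CON Ly6Chigh libraries. The libraries did not overlap, yet the log2 fold change of 0.72 (SE 0.35) did not pass (adjusted p = 0.163, edgeR). In the fit of these 2 groups alone it was 0.735 (SE 0.12, adjusted p = 0.000105), still under the fold threshold. Klf4 was called in SUS (1.45, SE 0.32, adjusted p = 0.000277, edgeR) and RES (1.18, SE 0.32, adjusted p = 0.00326), where Ly6Clow libraries held 427 to 595 and 410 to 543 CPM and Ly6Chigh libraries held 132 to 233 and 163 to 323 CPM. The change in this difference between SUS and CON was 0.73 (SE 0.48) and did not pass (adjusted p = 0.535, edgeR). Klf2, its relative that keeps lymphocytes quiescent and in circulation, differed by 0.51 (SE 0.29, adjusted p = 0.256, edgeR) between the CON monocyte types, with overlapping libraries, and by 0.53 (SE 0.14, adjusted p = 0.0117) in the fit of these 2 groups alone.

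Cebpa, the C/EBP factor of myeloid progenitors, was the only one of the 10 genes called lower in Ly6Clow monocytes. It measured 24.0, 19.2, 67.1 and 22.3 CPM in CON Ly6Clow and 92.2 to 189 CPM (median 110) in CON Ly6Chigh libraries, without overlap. The log2 fold change was -1.90 (SE 0.67, adjusted p = 0.0391, edgeR) in CON, and the adjusted p was 0.0811 with DESeq2 and 0.0565 to 0.128 without any one of 5 single libraries, Ly6Chigh CON replicates 2 and 5 and Ly6Clow CON replicates 1, 2 and 4. In SUS and RES it was -2.53 (SE 0.59, adjusted p = 0.000484) and -2.39 (SE 0.58, adjusted p = 0.00103). Neutrophil markers (Ly6g, Cxcr2, Ngp, Ltf and Camp) summed to 1.26 to 354 CPM in CON Ly6Chigh and 1.57 to 5.1 CPM in CON Ly6Clow libraries. In CON, SUS and RES, 3, 4 and 4 of the 5 were called lower in Ly6Clow, beside 4.08%, 9.08% and 7.14% of all genes. Of granule genes of progenitors, 2, 3 and 5 of 5 were called lower. No gene of either list was called higher. Their part in the Cebpa difference was not tested. Cebpb, a C/EBP factor induced by cytokines, spread widely within both types, from 22.1 to 163 CPM in Ly6Chigh and from 54.0 to 231 CPM in Ly6Clow libraries. Its log2 fold changes of 0.66 (SE 0.63), 0.27 (SE 0.57) and 0.69 (SE 0.57) in CON, SUS and RES did not pass. In Ly6Chigh libraries numbered 1 to 8 Cebpb had 2538 to 5375 counts, and in libraries 9 to 18 it had 741 to 2880. Each set held CON, SUS and RES libraries, and the part of library order in the spread of Cebpb was not tested. Cebpb overlaps Tmem189 on the opposite strand, with up to 2171 counts there, and Cebpa overlaps an antisense transcript with up to 131 counts.

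Neither Irf8 nor Spi1 was called between the monocyte types. Irf8 measured 254, 239, 308 and 344 CPM in CON Ly6Clow and 301 to 477 CPM (median 358) in CON Ly6Chigh libraries, and its log2 fold change was -0.37 (SE 0.28, adjusted p = 0.429, edgeR, 95% interval -0.91 to 0.18). With only these 2 groups in the fit it was -0.35 (SE 0.12) and passed the adjusted p (0.0408) but not the fold threshold. Spi1 measured 392, 365, 477 and 405 CPM in CON Ly6Clow and 310 to 446 CPM (median 387) in CON Ly6Chigh libraries. Its log2 fold change was 0.10 (SE 0.68, adjusted p = 0.993, edgeR, 95% interval -1.24 to 1.44), and 0.12 (SE 0.11, adjusted p = 0.53) with only these groups in the fit. Pou2f2, which encodes the octamer-binding factor OCT2 known best from B cells, was 541, 577, 623 and 643 CPM in CON Ly6Clow and 174 to 229 CPM (median 185) in CON Ly6Chigh libraries, without overlap. Its log2 fold change was 1.64 (SE 0.18, adjusted p = 9.81e-11, edgeR), with 1.91 (SE 0.17) in SUS and 1.65 (SE 0.17) in RES.

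Relatives and other factors were read from lists, beside 6.52% of all genes called higher and 4.08% called lower in CON Ly6Clow than Ly6Chigh monocytes. Of 34 measured relatives from the KLF, NR4A, CEBP, IRF, ETS and POU families, 7 were called higher and 3 lower in CON Ly6Clow than Ly6Chigh monocytes (median log2 fold change 0.16, beside 0.01 for all genes). Ets1, a factor of lymphoid and natural killer cells, was 5.04 higher on the log2 scale (SE 0.40, 159 against 4.82 CPM), and Irf7, which drives type I interferon, was lower by -1.51 (SE 0.33, 89.7 against 256 CPM). Cebpd was also lower, by -1.83 (SE 0.66). Of 43 other myeloid factors, 10 were called higher and 3 lower, with a median of 0.26, among them Pparg, a lipid-sensing receptor, at 4.21 (SE 0.52, 94.5 against 5.09 CPM). Of 19 lymphoid lineage factors, 10 were called higher and 0 lower, with a median of 1.49 and with 8.59 against 0.0709 CPM of Gata3 and 7.42 against 0.155 CPM of Lef1, in the same Ly6Clow libraries that carried natural killer markers and Lck. Of 21 immediate early genes, 5 were called higher and 1 lower, with a median of 0.235. Egr3 (6.06 against 0.0776 CPM), Dusp5 (145 against 11.9 CPM) and Dusp2 (49.9 against 6.37 CPM) were higher in Ly6Clow, and Fos (97.5 against 386 CPM) was lower.

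Between monocytes and lymphocytes most of the genes differed. In CON libraries 8 of 10 were called between B cells and Ly6Chigh monocytes (32.3% of all genes), 8 between T cells and Ly6Chigh (32.4%), 8 between B cells and Ly6Clow (28.9%), 7 between T cells and Ly6Clow (27.1%) and 7 between T and B cells (20%). Irf8, which also acts in germinal centre B cells, measured 331 to 551 CPM in B cells, 180 to 598 CPM in monocytes and 2.19 to 12.5 CPM in T cells. It was not called between B cells and either monocyte type. Spi1 was 66.2 to 122 CPM in B cells, and between B cells and Ly6Chigh the log2 fold change was -2.01 (SE 0.64, adjusted p = 0.00794, edgeR), whereas with libraries 52 and 70 restored the adjusted p was 0.0585. Between B cells and Ly6Clow it was -2.11 (SE 0.68, adjusted p = 0.0105), and 0.0707 with both restored. Pou2f2 in B cells (124 to 271 CPM) overlapped Ly6Chigh monocytes and lay below every Ly6Clow library. Klf2 was higher in CON B cells than in CON Ly6Chigh monocytes by 1.37 (SE 0.27, adjusted p = 2.24e-05, edgeR). Cebpa and Cebpb stayed at or below 4.72 CPM in every lymphocyte library.

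The comparison of stressed with unstressed mice asks whether these factors changed with CSDS or with its outcome. No member passed both thresholds in any of 12 comparisons, by edgeR or by DESeq2. In Ly6Chigh monocytes the share of all genes called was 3.45% for SUS against CON, 0.997% for RES against CON and 0% for SUS against RES. At an unadjusted p under 0.05 stood 3, 3 and 0 of the 10 genes, beside 26.5%, 21.2% and 3.66% of all genes. In Ly6Clow monocytes the share called was 0.0871%, 0.0154% and 0%. At the unadjusted p stood 2, 1 and 1 members there, beside 9.51%, 9.67% and 3.79% of all genes. In B cells, where 9 of the genes could be tested, the share called was 0.00568%, 0% and 0%, and at the unadjusted p stood 0 members in each, beside 3.42%, 3.18% and 1.36% of all genes. In T cells the share called was 0.0265%, 0% and 0%, and at the unadjusted p stood 0, 1 and 1 members, beside 4.8%, 4.11% and 2.39% of all genes. Counts by DESeq2 at an unadjusted p under 0.05 were 3, 3 and 0 in Ly6Chigh, 2, 1 and 1 in Ly6Clow, 0 in each B cell comparison, and 1, 1 and 1 in T cells.

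By adjusted p alone, 2 of the 10 genes passed in SUS against CON Ly6Chigh monocytes, where 12.6% of all genes did so. Klf4 measured 132 to 233 CPM (median 198) in SUS and 224 to 343 CPM (median 274) in CON libraries. The log2 fold change was -0.60 (SE 0.17, adjusted p = 0.0263, edgeR), with 4 of 6 SUS libraries below every CON library. Spi1 measured 412 to 824 CPM (median 538) in SUS and 310 to 446 CPM (median 387) in CON libraries. The log2 fold change was 0.53 (SE 0.15, adjusted p = 0.0228, edgeR), and 5 of the 6 SUS values exceeded all CON values. In RES against CON the same genes differed by -0.38 (SE 0.17, adjusted p = 0.201) and 0.43 (SE 0.15, adjusted p = 0.0919), and RES libraries of Spi1 (456 to 583 CPM) lay above all CON libraries. Neither SUS against RES difference passed (Klf4 -0.21, SE 0.17, Spi1 0.10, SE 0.15, adjusted p = 0.999 for both). Pou2f2 was 109 to 197 CPM in SUS and 174 to 229 CPM in CON, a difference of -0.37 (SE 0.13, adjusted p = 0.0683, edgeR) that passed with DESeq2 (-0.44, adjusted p = 0.0104).

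Markers of red blood cells moved with the same groups. Their summed level (Hba-a1, Hba-a2, Hbb-bs, Hbb-bt, Alas2 and Slc4a1) was 343 to 1220 CPM in CON, 1100 to 8990 CPM in SUS and 1080 to 4350 CPM in RES Ly6Chigh libraries, and 6 of 6 were called higher in SUS and 1 of 6 in RES. A covariate was then made from the mean log2(CPM + 0.5) of these 6 genes. With it, the SUS against CON difference of Spi1 was 0.11 (SE 0.16, adjusted p = 0.977, edgeR) and that of Klf4 was -0.72 (SE 0.23, adjusted p = 0.426). The number of all genes passing the adjusted p went from 2139 to 2. The markers differed between the mouse groups, so red cell content and stress cannot be told apart. Within groups, over 18 libraries, Spi1 followed the red cell sum (r = 0.73, permutation p = 0.00453, adjusted 0.00604, rho = 0.63, permutation p = 0.011, adjusted 0.0147, r = 0.64 without the 2 extreme libraries). Klf4 did not (r = 0.22, permutation p = 0.46, adjusted 0.46, rho = 0.15, permutation p = 0.605, adjusted 0.605, r = -0.04 without them). These relations were chosen after seeing the data, and adjusting over 4 relations does not cover that choice. SUS replicate 5 was the highest library in both Spi1 and the red cell sum, and without it the Spi1 difference was 0.35 (adjusted p = 0.065). The adjusted p of Spi1 was 0.0657 without CON replicate 1, and that of Klf4 was 0.0520 to 0.0698 without SUS replicate 1 or 3 or CON replicate 2 or 5.

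Other lists moved in these libraries too. Summed dendritic cell markers were 127 to 165 CPM in CON and 30.5 to 98.7 CPM in SUS Ly6Chigh libraries, with 1 of 5 tested called lower. Granule genes of progenitors summed to 4.66 to 43.3 CPM in CON and 15.8 to 184 CPM in SUS, with 2 of 5 called higher. Their part in the Klf4 and Spi1 values was not tested. The median log2 fold change of the 10 genes in SUS against CON Ly6Chigh monocytes was 0.16, beside -0.05 for all genes.

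**Figure D3:**
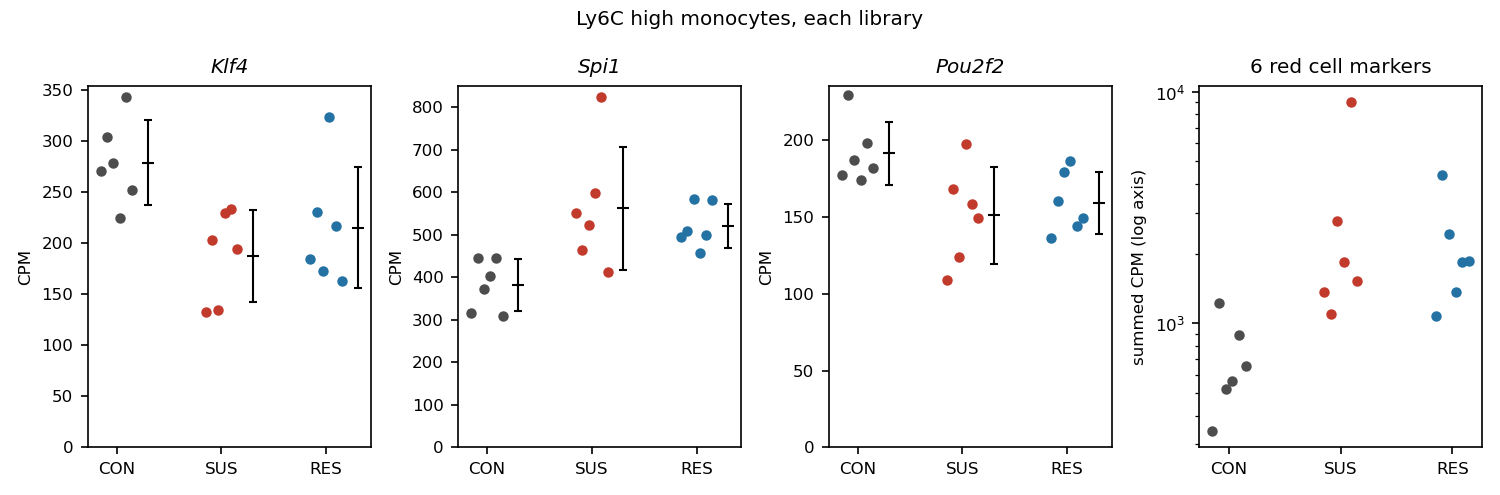
Klf4, Spi1 and Pou2f2 (CPM) and the summed level of 6 red cell markers (CPM, log axis) in each Ly6Chigh library of CON, SUS and RES, with the mean and SD of each group for the genes. Klf4 was lower in SUS (132 to 233 CPM) than in most CON libraries (224 to 343 CPM), Spi1 was higher, and red cell markers were highest in 1 SUS library at 8990 CPM.

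The lists were also read in SUS against CON Ly6Chigh monocytes, where 3.45% of all genes were called. Of 31 tested relatives, 1 was called, Klf8 (-1.56, SE 0.51, 2.19 against 6.40 CPM). Of 40 other myeloid factors, 1 was called, Nfil3, a repressor with roles in innate lymphocytes and dendritic cells (1.23, SE 0.22, 104 against 43.4 CPM in SUS and CON). Of 12 lymphoid factors, 1 was called, Ikzf3 (-2.61, SE 0.62, 1.24 against 7.21 CPM). Of 20 immediate early genes, 2 were called, Ier3 (3.46, SE 0.62, 11.5 against 1.02 CPM) and Zfp36l1 (1.73, SE 0.28, 45.3 against 13.4 CPM). The NR4A genes, which belong to the same kind of early genes, were not among them. In RES against CON, Ier3 alone of the 20 was called (2.64, SE 0.60). In SUS against CON Ly6Clow monocytes 1 of 42 other myeloid factors was called, Zbtb46, a factor of dendritic cells (16.0 against 31.95 CPM, SE of the log2 fold change 0.20), and 1 of 21 immediate early genes, Atf3 (-1.09, SE 0.24, 12.3 against 26.2 CPM).

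Nr4a1 did not pass in either monocyte type. It measured 186 to 534 CPM (median 296) in SUS, 211 to 345 CPM (median 246) in RES and 233 to 397 CPM (median 282) in CON Ly6Chigh libraries. The log2 fold changes were 0.09 (SE 0.22, 95% interval -0.33 to 0.51) and -0.18 (SE 0.22, interval -0.60 to 0.24). In Ly6Clow monocytes it was 885 to 1238 CPM in SUS and 731 to 1064 CPM in RES, and the differences were 0.11 (SE 0.10) and -0.05 (SE 0.10). Pou2f2 in Ly6Clow monocytes was 437 to 520 CPM in RES, below all CON libraries (541, 577, 623 and 643 CPM) and all SUS libraries (529 to 609 CPM), but neither -0.28 (SE 0.07, adjusted p = 0.167, edgeR) against CON nor 0.19 (SE 0.07, adjusted p = 1) for SUS against RES passed. With DESeq2 the difference from CON was -0.29 and passed the adjusted p (0.024).

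For Nr4a3 the SUS against CON difference had opposite signs in the monocyte types, and neither passed. In Ly6Clow monocytes it was 3.25 to 16.4 CPM (median 6.01) in SUS against 20.8, 23.8, 12.7 and 14.4 CPM in CON, with 5 of 6 SUS libraries below every CON library, and the log2 fold change was -1.18 (SE 0.41, adjusted p = 0.298, edgeR). In Ly6Chigh monocytes it was above 0.5 CPM in 4 of 6 SUS libraries (0.588, 0.983, 1.57 and 1.64 CPM), with the others at 0 and 0.0250 CPM, against a highest CON value of 0.410 CPM. The difference of 3.38 (SE 1.83, adjusted p = 0.246) did not pass. The test of the difference between the types, SUS against CON in Ly6Clow minus Ly6Chigh, gave -4.53 (SE 1.28, adjusted p = 0.0804, edgeR) and passed with DESeq2 (-4.57, adjusted p = 0.0263). No member passed this test by edgeR in SUS (0.363% of all genes passed) or in RES (0.099%). At an unadjusted p under 0.05 stood 1 of the 10 genes in SUS, beside 14.2% of all genes, and 0 in RES, beside 11.7%.

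**Figure D4:**
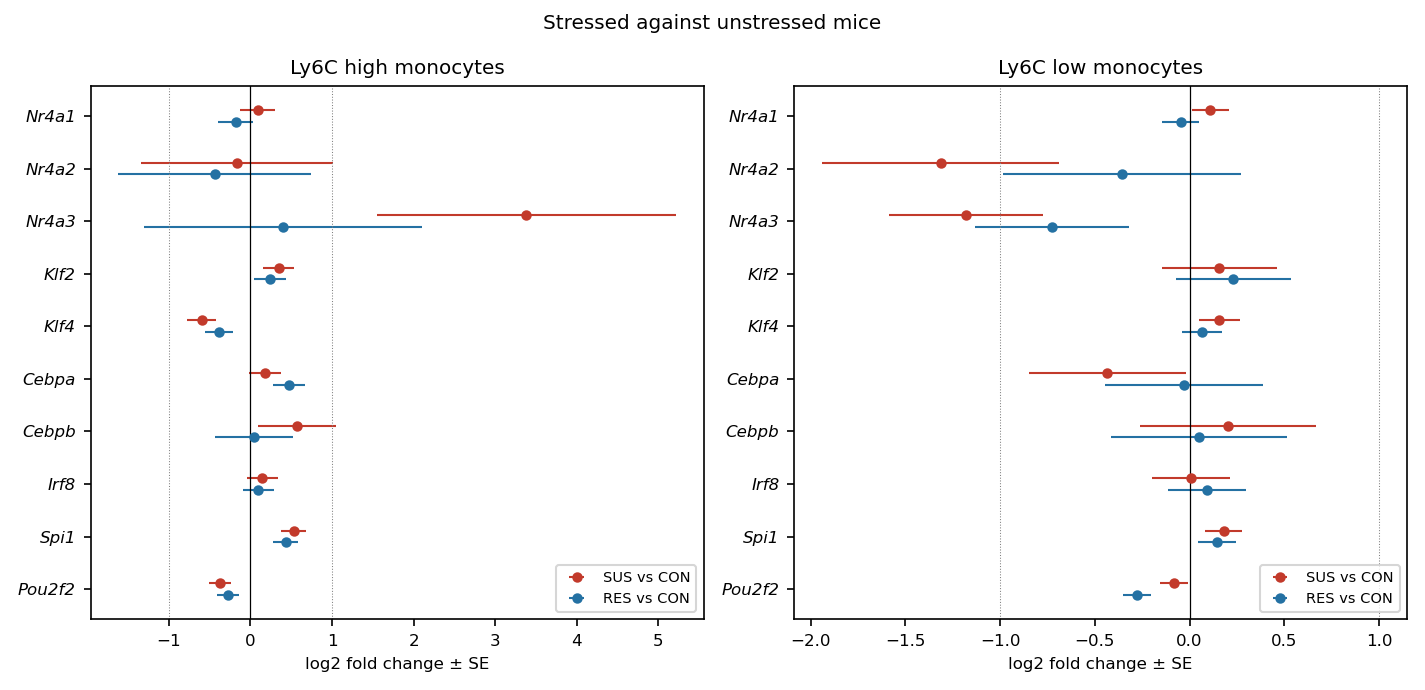
Log2 fold change of SUS and RES against CON with its standard error for each gene in Ly6Chigh (left) and Ly6Clow (right) monocytes, with dotted lines at 1 and -1. Klf4 (-0.60) and Spi1 (0.53) in SUS Ly6Chigh monocytes passed the adjusted p alone, and the wide bars of Nr4a2 and Nr4a3 belong to levels near 0 in Ly6Chigh cells.

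In T cells only Nr4a1 had an unadjusted p under 0.05 by edgeR, in RES against CON (log2 fold change 0.94) and SUS against RES (-0.84, SE 0.34, adjusted p = 1), where RES libraries measured 4.55 to 14.1 CPM and CON libraries 2.27 to 5.46 CPM (RES against CON adjusted p = 0.941, edgeR). Of the 5 RES libraries, 3 lay above every CON library. With library 70 restored it was 1.11 (adjusted p = 0.684). In RES against CON B cells, log2 fold changes of the 9 genes tested lay between -0.27 and 1.62, and no gene was called with library 52 restored. With library 70 restored, Irf8 in RES against CON T cells was 3.74 (SE 1.20, adjusted p = 0.714).

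The genes also varied together between libraries of a group. Pairs were compared on log2(CPM + 0.5) after the group means were subtracted, over 18 Ly6Chigh and 16 Ly6Clow libraries, and p-values were adjusted over 90 pairs. In Ly6Chigh monocytes 4 pairs passed by both r and rho. Nr4a1 went with Irf8 (r = 0.85, permutation p = 0.00167, adjusted 0.025, rho = 0.825, adjusted 0.0314) and with Klf4 (r = 0.68, permutation p = 0.00474, adjusted 0.0449, rho = 0.75, adjusted 0.0288), Klf2 with Cebpa (r = 0.77, permutation p = 0.00126, adjusted 0.0227, rho = 0.825, adjusted 0.0281) and Klf4 with Pou2f2 (r = 0.73, permutation p = 0.0026, adjusted 0.0334, rho = 0.79, adjusted 0.0281). Without the 2 libraries farthest from the median these were 0.79, 0.59, 0.76 and 0.64. In Ly6Clow monocytes 6 pairs passed by r, 5 of them also by rho (not Nr4a1 with Pou2f2, rho adjusted 0.0771), led by Klf2 with Cebpb (r = 0.90, permutation p = 3e-05, adjusted 0.0027, rho = 0.84, adjusted 0.0243, r = 0.88 without the 2 libraries). Klf4 went with Spi1 there (r = 0.80, permutation p = 0.00101, adjusted 0.0227, rho = 0.80, adjusted 0.0281), and Klf2 with Cebpa passed in both types (r = 0.75 in Ly6Clow, permutation p = 0.00056, adjusted 0.0168, rho = 0.72, adjusted 0.0364). The correlations are across libraries, not cells, and the total counts of the Ly6Chigh libraries ranged from 19769835 to 67038231. The permutations treat libraries of a group as exchangeable. Yet Klf2 in Ly6Clow monocytes was 257 to 318 CPM in libraries 19 to 24, which hold CON, SUS and RES alike. It was 376 to 683 CPM in libraries 25 to 32, 284 CPM in library 33 and 410 CPM in library 34. The part of library order in these correlations and their p-values was not tested. The share of other gene pairs that vary together this strongly was not tested. The correlations are therefore not shown to be particular to these factors.

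**Figure D5:**
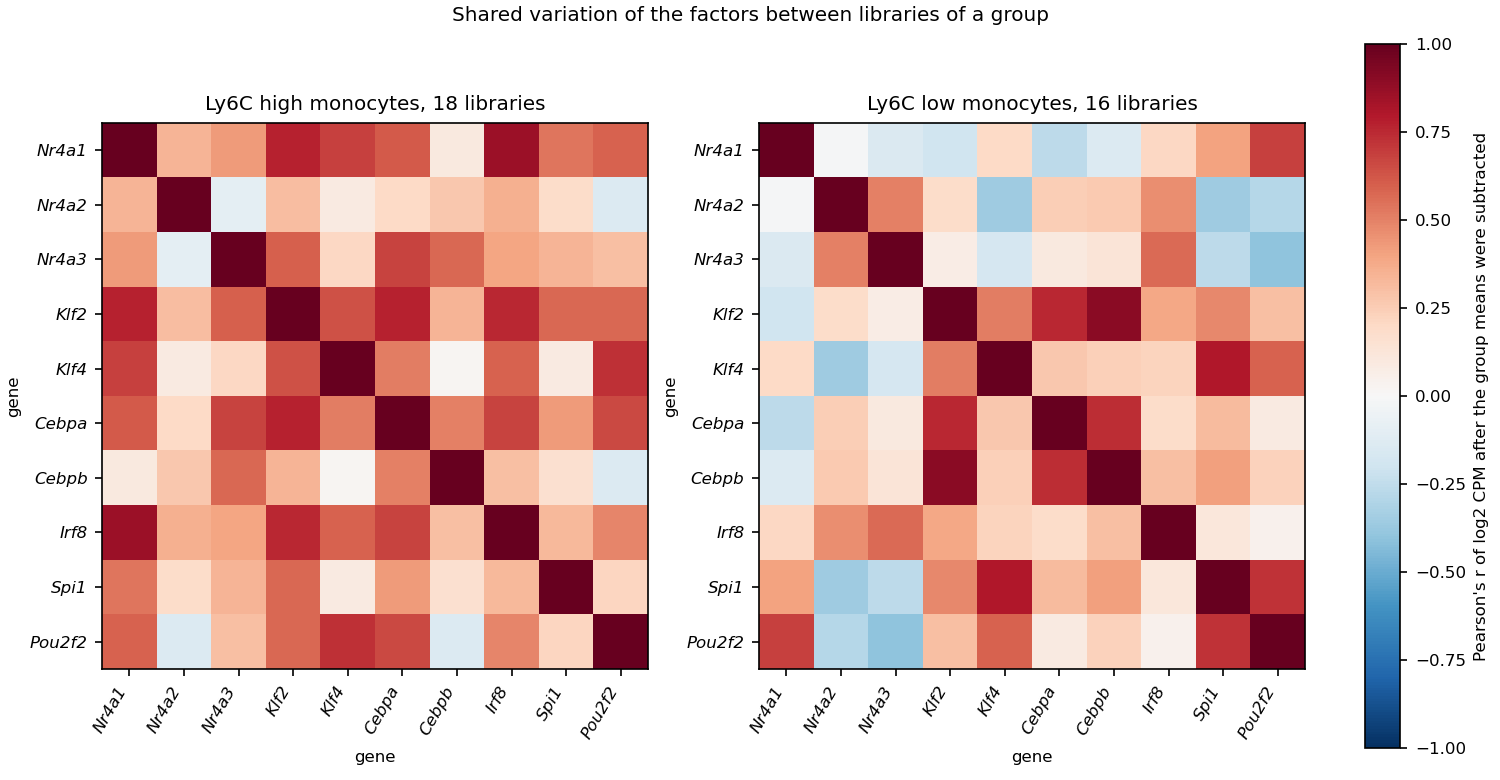
Pearson's r between each pair of the 10 genes over 18 Ly6Chigh (left) and 16 Ly6Clow (right) libraries, after the mean of each mouse group was subtracted from log2(CPM + 0.5). Klf2 with Cebpb had the highest r in Ly6Clow (0.90) and Nr4a1 with Irf8 in Ly6Chigh (0.85).

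The genes most like each factor were named by Pearson's r of log2(CPM + 0.5) over all 68 libraries, which largely follows the cell types. Among the genes most like Spi1 were Pld4 (0.994) and Cybb (0.987), the phagocyte oxidase subunit. Irf8 was closest to Syk (0.984) and Plcg2 (0.983), both of the signalling chain shared by B cells and monocytes. Nr4a3 was closest to Serpinb6b (0.874), Eomes (0.872), Samd3 (0.865) and Fasl (0.855), of which Eomes and Fasl are known from natural killer and cytotoxic T cells. Nr4a1 was closest to Gm15931 (0.984) and Slc11a1 (0.983), and Klf2 to Jund (0.865). After the 12 group means were subtracted, Klf2 went with Maz (0.859), Jund (0.854) and Zbtb7a (0.849), and Nr4a1 with Cbfa2t3 (0.648) and Klf4 (0.635). Among the 5 genes closest to Cebpb were Hnrnpa0 (0.693) and, as for Klf2, Jund (0.672).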

How the data were processed

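RNA from cells sorted into Trizol was made into libraries with a stranded SMARTer kit for pico amounts of total RNA and sequenced as paired 150-base reads. The authors mapped reads to mm10 with HISAT2 2.1.0 and deposited whole-number counts per gene from htseq-count 0.12.4 on Ensembl 90. The strand setting of the counting is not given in the sources used here. Ensembl identifiers were matched to GENCODE M21 (52403 of 52636). Libraries 52 and 70 were left out. No pair of libraries of the same group among 171 was identical. Counts were tested with edgeR 4.0.16 (R 4.3.3, filterByExpr, TMM, robust quasi-likelihood test) within each cell type for stress and over 12 groups for cell types and for the difference of differences. DESeq2 1.42.0 and the other settings in the closing section were alternatives. The members and lists were chosen with earlier results of these data known. All 10 members are named, and from each list at most 3 genes per direction past both thresholds, by size of change. For likeness, the 5 genes with the highest r among those with a mean of at least 5 CPM were taken. One gene that this rule names is not reported here. Correlations used 100000 permutations within groups, and the 4 relations with marker lists were chosen after seeing the data. The tests were tested on simulated data: in SUS against CON Ly6Chigh monocytes 8.96%, 47.8% and 80.3% of genes changed by 1.5-, 2- and 4-fold were recovered at an adjusted p under 0.05 among 16132 genes. In the simulation 67, 67 and 66 genes were changed, all above a minimum count that Nr4a2 and Nr4a3 did not reach. No fold threshold was applied there, so these shares are not recovery rates for the 10 genes. Depth was 19769835 to 67038231 counts per library, and floors cover counting error only. Replicate numbers were given in order and pair no samples.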

Additional observations from a re-analysis of the deposited data

Results flagged for a closer look

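In 13 of 117 groups of libraries with any spread, 1 library stood apart from the others of its group by Dixon's criterion. Chance gives about 1 in 20 for normally distributed values. CPM near 0 are not so distributed, and a group with all but 1 library at 0 is always flagged. The 13 are therefore no measure of an excess. In Ly6Clow monocytes these were Nr4a1 in CON replicate 1 (858 CPM, others 969 to 986), Cebpa in CON replicate 3 (67.1 CPM, others 19.2 to 24.0) and in RES replicate 4 (65.6 CPM, others 19.1 to 36.0), and Pou2f2 in RES replicate 3 (437 CPM, others 508 to 520). In Ly6Chigh monocytes they were Irf8 in CON replicate 5 (477 CPM, others 301 to 362) and Nr4a3 in CON replicate 2 (0.410 CPM, others at most 0.0288) and RES replicate 1 (0.579 CPM, others 0). In B cells they were Nr4a3 in RES replicate 4 (2.22 CPM, others 0.393 to 0.862) and Cebpa in CON replicate 1 (1.04 CPM, others at most 0.265). In T cells they were Klf2 in RES replicate 5 (750 CPM, others 352 to 431), Klf4 in CON replicate 2 (10.4 CPM, others 1.78 to 3.05) and RES replicate 2 (7.08 CPM, others 2.09 to 3.41), and Cebpa in SUS replicate 2 (4.62 CPM, others at most 0.904).

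The libraries left out of the comparisons held levels above the CON range of their labelled cell type, here scaled over all 70 libraries. Library 70, labelled RES T cells, measured 469 CPM of Irf8 (CON T cells 3.3 to 9.52), 251 CPM of Pou2f2 (13.9 to 25.6), 81.2 CPM of Spi1 (0.0638 to 7.79), 23.2 CPM of Klf4 (1.81 to 10.5), 922 CPM of Klf2 (338 to 772), 14.2 CPM of Nr4a1 (2.26 to 5.53) and 1.08 CPM of Cebpa (0.0234 to 0.579). Of these 7 values, 6 lay within the range of the RES B cell libraries, 330 to 560 CPM for Irf8, and Nr4a1 lay just above its highest value of 14.1 CPM. Library 52, labelled RES B cells, measured 4.08 CPM of Nr4a3 (CON B cells 0.135 to 2.03), within the RES T cell range of 1.51 to 9.60 CPM.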

How the results depend on the processing

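Over 454 recomputed counts of called members, 444 were within 1.5 times of the reported count. Most of these counts belong to the 12 stress comparisons and the differences between monocyte types, where 0 members were called. The share therefore says little about the members that were called. The number of the 10 members passing the adjusted p in SUS against CON Ly6Chigh monocytes was 0 with the red cell covariate and 1 to 3 when any one library was left out. For the difference of SUS against CON between the monocyte types it was 1 with DESeq2 and 0 to 1 with any one library left out, where Nr4a3 passed without Ly6Chigh CON replicate 2 or SUS replicate 6. Of 859 refits of 56 called or passing values, 832 kept their direction and their side of the threshold and 0 changed direction. Nr4a1, Nr4a3 and Pou2f2 stayed called between monocyte types in 28 of 28 refits each, Klf4 in 12 of 12 and Cebpa in 20 of 28. Single libraries were left out only in CON, with 10 such refits, so none was run for Klf4, which was called in SUS and RES, and 5 of the 8 Cebpa losses were of this kind. Between CON T and B cells, the Nr4a1 difference of -1.05 came under the fold threshold with DESeq2 or its size factors (-0.99 with the latter) and without B cell CON replicate 4 or 6 or T cell CON replicate 6 (-0.93 to -0.98), and Nr4a3 did not pass without B cell CON replicate 3 or 5 (adjusted p 0.063 and 0.061). Klf2 between CON B cells and Ly6Clow lost its adjusted p without Ly6Clow CON replicate 1 or 2 (0.0679 and 0.0746), and Cebpa between CON monocyte types also without a count filter (0.0699) and with libraries 52 and 70 restored (0.0601). The cause was not tested. The median log2 fold change of all genes in SUS against CON Ly6Chigh monocytes was -0.05, -0.11 with DESeq2 size factors and -0.16 with DESeq2. All 200 correlations with pseudocounts of 0.1 and 1 CPM moved by less than 0.1. No paired analysis was possible because the labels name no mouse and replicate numbers were given in order. In Ly6Chigh monocytes Nr4a3 had 0 to 54 counts per library and Nr4a2 0 to 101.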

Other observations

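Spi1 in T cells fell into separate levels. It measured 5.55 to 8.38 CPM in the 6 libraries numbered 53 to 58, which belong to replicates 1 and 2 of CON, SUS and RES alike, and 0 to 1.92 CPM in the other 11. Within groups it followed the summed level of the monocyte markers Csf1r, Cd68 and Fcgr3 over the 17 libraries (r = 0.95, permutation p = 1e-05, the smallest the permutations can give, adjusted over 4 relations 4e-05, rho = 0.85, permutation p = 0.00027, adjusted 0.00108, and r = 0.95 without the 2 extreme libraries). The libraries of higher Spi1 came from all 3 mouse groups. The permutations treat libraries of a group as exchangeable, although libraries 53 to 58 share the higher level. These p-values therefore measure no relation beyond the step between the levels, and the relation was chosen after seeing the data.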
